A study of Homo sapiens with 12 samples.

Results

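The cyclins D1, D2 and D3 (CCND1, CCND2, CCND3), E1 and E2 (CCNE1, CCNE2), A1 and A2 (CCNA1, CCNA2), B1 and B2 (CCNB1, CCNB2) and F (CCNF) were followed in A2780, an established human ovarian carcinoma cell line. Every probe whose platform annotation gives 1 of these 10 genes, and no other gene, was taken. This gave 22 probe sets of 54613 on the Affymetrix array (AFFX) and 12 probes of 33096 on the Applied Biosystems array (ABI). The 10 genes were among 16186 genes measured on both platforms. The treated cells were exposed for 6 hours to 3 µM of a cell cycle inhibitor that the sources used here do not name, and the control cells were untreated. For each condition 3 cultures were pooled into 1 RNA pool, and aliquots of that pool were hybridised to 3 arrays on each platform, 12 arrays in all. Only cells still attached to the dish were harvested.

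Because the arrays of a condition share 1 RNA pool, every p-value below measures technical spread and compares the treated pool with the control pool. The spread between cultures was not measured. A lower signal in a pool cannot be told apart from fewer cells in the phase that uses the gene, because the study examined cell cycle phases in a separate experiment that is not analysed here.

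Cyclins are the regulatory subunits of the cyclin-dependent kinases (CDKs). The D cyclins bind CDK4 and CDK6 and are induced by growth signals in G1. The E cyclins bind CDK2 and peak at the entry to S phase. Cyclin A2 binds CDK2 and CDK1 during S and G2 phase, and the B cyclins bind CDK1 and drive mitosis. Cyclin F is an exception: it is the substrate-binding F-box subunit of a ubiquitin ligase and is not known to activate a CDK. Transcription of the E cyclins depends largely on E2F factors, and that of the mitotic cyclins on the NF-Y factor at CCAAT boxes and on the DREAM and MMB complexes at a cell cycle homology region (CHR).

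The promoter windows of the A2, B1, B2 and F cyclins are shown because CCNA2, CCNB1 and CCNF were lower in treated cells on both platforms while CCNB2 was not. The windows were read from RefSeq on GRCh38.p14, from 250 bases before to 50 bases after each annotated start site. The RefSeq table held entries for 7 of the 10 genes, all but CCND1, CCND2 and CCNE2. Both strands were searched for the letters CCAAT (the CCAAT box), TTTGAA (the CHR) and 4 forms of the E2F site (TTTGGCGC, TTTCCCGC, TTTGCCGC and TTTCGCGC). Other forms of the CHR and of the E2F site were not searched, so a window without a match may still hold such a site. Matches are in capitals in the 30-base stretches below, each written 5′ to 3′ on the strand of its gene. The B1 stretches lie at chr5:69167051-69167080 and chr5:69167083-69167112 on the plus strand. The B2 stretches lie at chr15:59105047-59105076, chr15:59105080-59105109 and chr15:59105105-59105134 on the plus strand. The A2 stretch lies at chr4:121823922-121823951 on the minus strand, and the F stretch at chr16:2429340-2429369 on the plus strand.
CCNA2, CCAAT box in reverse: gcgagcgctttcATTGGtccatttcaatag
CCNB1, far CCAAT box: gaccggcagccgCCAATgggaagggagtga
CCNB1, near CCAAT box: gccacgaacaggCCAATaaggagggagcag
CCNB2, far CCAAT box: atcttgtgttggCCAATgagaacagcgacc
CCNB2, near CCAAT box: gcgcagggccgcCCAATggggcgcaagcga
CCNB2, CHR: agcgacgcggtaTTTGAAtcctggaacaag
CCNF, CCAAT box and CHR: gCCAATgggagggccgggtgcgTTTGAAaa

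Both B cyclins had a CCAAT box whose first base lies at -87 from the start site and a second one close to it, at -55 in CCNB1 and at -54 in CCNB2. CCNB2 held further CCAAT boxes at -244 and -120 and a CHR at -29. CCNF held CCAAT boxes at -250, -239, -210 and -106 and a CHR at -85, and CCNA2 held 1 CCAAT box, in reverse, at -56. CCND3 has 3 annotated windows, of which 2 held 1 CCAAT box each. CCNE1 and CCNA1 had none of these letters in the window, and no E2F form was matched in any of the 7 genes. Of 35116 RefSeq promoter windows of the same length, 34.6% held a CCAAT box, 15.2% a CHR and 3.31% an E2F form. A match is a description of the sequence and was not tied to any signal here.

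**Figure D1:**
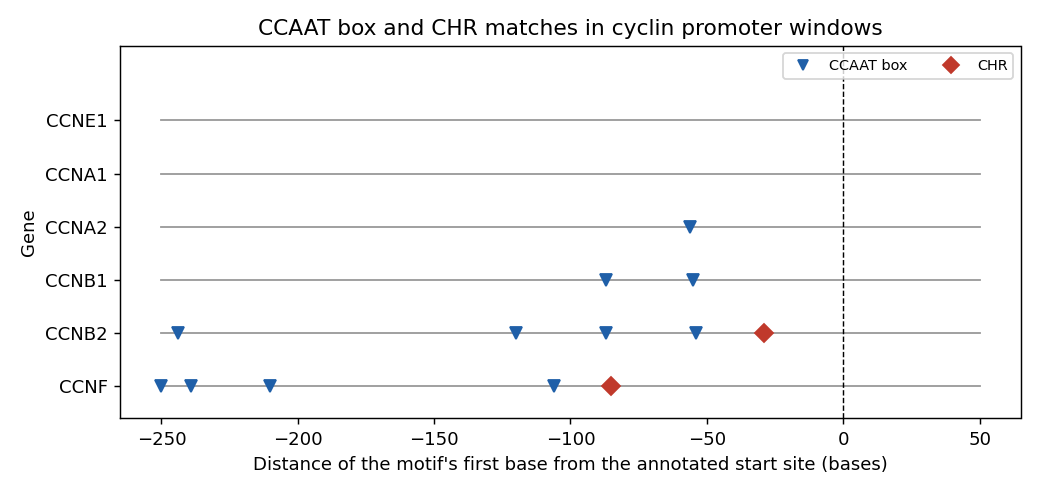
Positions of CCAAT boxes (triangles) and CHR matches (diamonds) in the promoter windows of 6 cyclin genes, with the distance of the first base of each match from the annotated start site in bases on the horizontal axis and 1 gene per line. CCNB1 and CCNB2 share the box at -87, and a CHR appears in CCNB2 at -29 and in CCNF at -85 (CCND3, with 3 windows, is not drawn).

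All signals below are on the log2 scale. AFFX signals were deposited as log2 values and ABI signals as linear values that were turned to log2, so that levels cannot be set against each other across platforms or between probes. A probe is given as lower or higher when its p-value from limma, adjusted over all probes of the platform by the Benjamini-Hochberg method, was under 0.05 and the change between treated and control arrays was at least 1.5-fold. By this rule 8.95% of all AFFX probe sets were lower and 1.75% higher in treated arrays, and 10.1% of all ABI probes were lower and 7.71% higher. Of the 22 cyclin probe sets on AFFX, 8 were lower, 2 were higher and 12 were not called. Of the 12 cyclin probes on ABI, 6 were lower, none was higher and 6 were not called. The median log2(Fold Change) over the cyclin probes was -0.09 on AFFX, against 0.12 over all probe sets, and -0.82 on ABI, against 0.16 over all probes. Treated and control arrays did not overlap at 15 of the 22 cyclin probe sets on AFFX, as at 51.5% of all probe sets, and at 11 of the 12 on ABI, as at 40.9% of all probes.

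The identity of the cells and the scale of the arrays bear on all of these values. On AFFX the mesenchymal marker VIM was among the brightest genes (13.63 in treated and 13.71 in control arrays) as it was on ABI (9.65 and 9.46). Since the files carry no detection flags, the 90th percentile of the leukocyte marker probes (6.11 on AFFX and -0.01 on ABI) served as a guide to dim signal. Of those probes, 0 of 27 were called on AFFX and 1 of 22, higher, on ABI. The Müllerian marker PAX8 lay above the guide on AFFX (7.83 in treated and 7.65 in control arrays) but below it on ABI (-1.07 and -0.55). Among the keratins of epithelial cells on AFFX, KRT7 (7.03 and 7.15) and KRT8 (6.26 and 6.20) were above the guide, KRT18 was at it (6.11 and 5.93) and KRT19 was below (4.88 and 4.62). The epithelial markers EPCAM (4.21 and 4.23) and CDH1 (4.45 and 4.17) and the ovarian markers WT1 (3.98 and 3.75) and MUC16 (4.24 and 4.02) were also below it on AFFX. On ABI, MUC16 (1.44 and 0.28), KRT8 (0.50 and 0.62) and KRT18 (0.16 and 1.03) were above the guide in both pools. EPCAM (-1.18 and -0.15) and CDH1 (-1.25 and -2.54) were below it in both, and WT1 (-0.24 and 0.10) and KRT7 (0.22 and -0.48) in 1. Of the fibroblast and endothelial marker probes, 22 of 37 on AFFX and 7 of 16 on ABI lay above the platform median, with COL3A1 highest (12.26 and 7.75). Below the guide lay 5 cyclin probe sets on AFFX and 1 cyclin probe on ABI. The 18 bacterial hybridisation control probe sets, spiked into each sample before hybridisation, averaged 9.76 on treated and 9.34 on control AFFX arrays (exact two-sided permutation p = 0.1, the smallest that 3 against 3 arrays can give). On ABI, 64 of 124 probes of ribosomal protein genes were higher in treated arrays, against 7.71% of all probes. On AFFX 4 of 118 such probe sets were higher and 3 lower, against 1.75% and 8.95% of all probe sets. Centring the arrays on these 2 references moved the median change of all probes by -0.42 (hybridisation controls, AFFX), -0.16 (ribosomal proteins, AFFX) and -0.58 (ribosomal proteins, ABI). Changes are therefore relative to the bulk of the probes on each array, and a cyclin whose direction turned under such a centring is named as such.

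**Figure D2:**
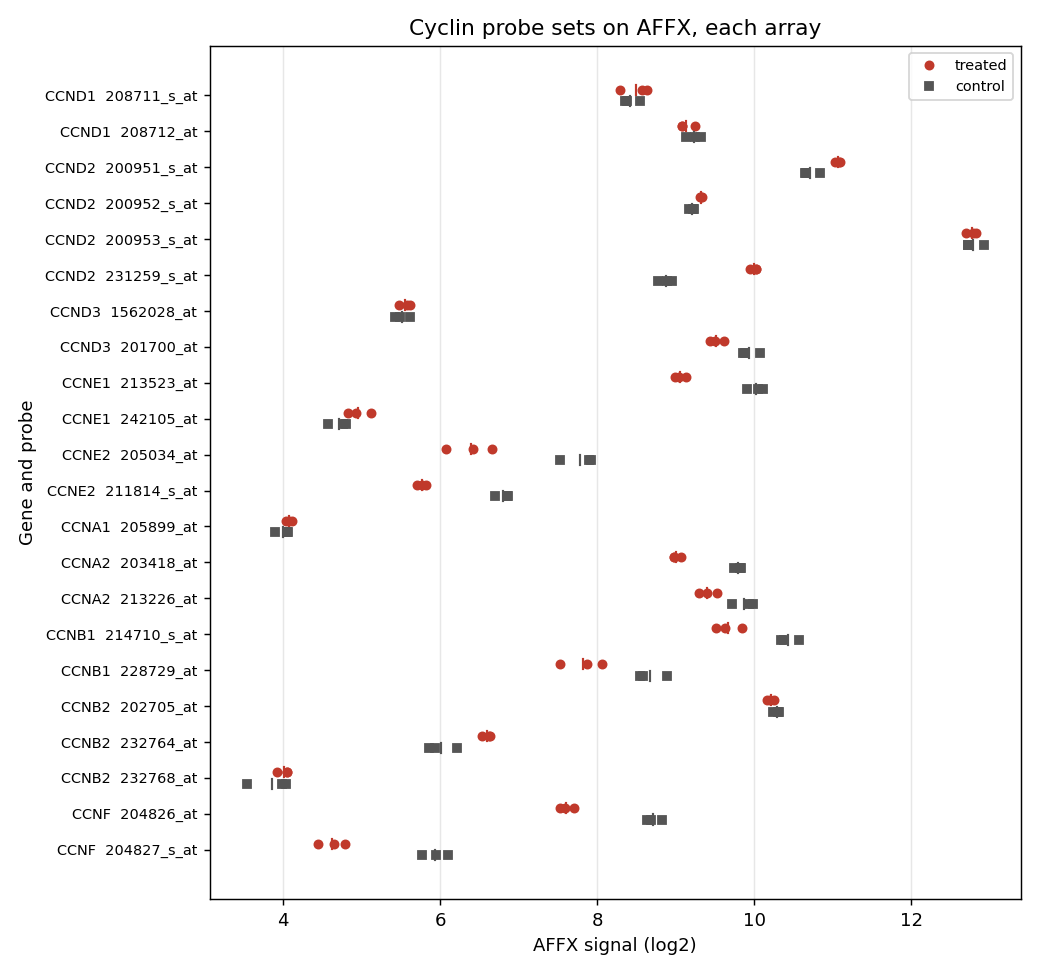
AFFX signal (log2, horizontal axis) of each of the 22 cyclin probe sets on each array, with treated arrays as circles above control arrays as squares. The arrays of the 2 pools stand apart for both CCNE2 and both CCNF probe sets, and mix for CCNB2 202705_at, where all 6 values lie between 10.16 and 10.32.

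**Figure D3:**
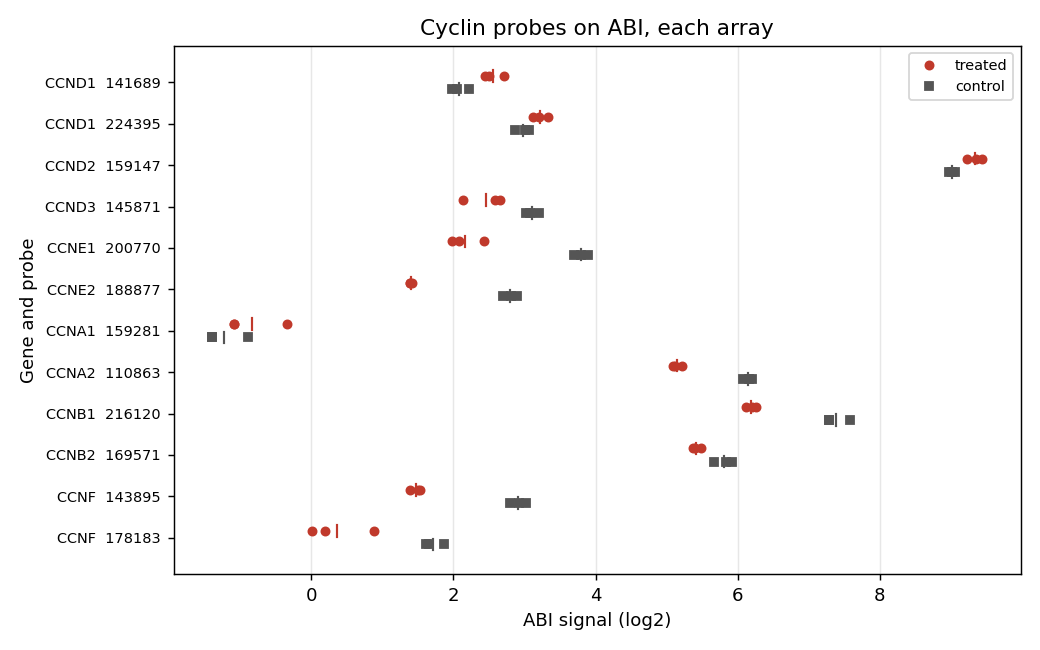
ABI signal (log2 of the deposited intensity, horizontal axis) of each of the 12 cyclin probes on each array, with treated arrays as circles above control arrays as squares. The arrays of the 2 pools overlap only for CCNA1, the dimmest cyclin probe.

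The E cyclins, cyclin A2, cyclin B1 and cyclin F were lower in treated cells on both platforms. With 1 probe per gene and platform, taking where a gene had several the one whose p in the methods' t-test was lowest, 5 of the 10 cyclin genes were lower on AFFX (14.2% of all genes) and 2 were higher (2.49%). On ABI 5 were lower (14.8% of all genes) and none was higher (6.31%). The 5 genes lower on both platforms, where 10.5% of all shared genes were lower, were CCNE1, CCNE2, CCNA2, CCNB1 and CCNF. No cyclin was higher on both (0.42% of shared genes) or called in opposite directions. Choosing the probe by its p favours larger changes. With the brightest probe of each gene instead, 4 cyclins were lower on both platforms and none was higher on AFFX. The share of all genes under this choice is not given here, and the shares above do not apply to it.

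Among the D cyclins, no gene was called on both platforms. Cyclin D1 (Entrez Gene ID 595), the D cyclin most often amplified in tumours, had AFFX signals of 9.07, 9.25 and 9.08 in treated arrays at probe set 208712_at, against 9.25, 9.33 and 9.13 in control arrays. These values overlapped, and the log2(Fold Change) on AFFX was -0.10 (standard error 0.0905, 95% interval -0.30 to 0.10, limma adjusted p = 0.401). At 208711_s_at treated arrays gave 8.57, 8.63 and 8.29 and control arrays 8.54, 8.37 and 8.35, which again overlapped (0.07, standard error 0.106). On ABI all 3 treated arrays lay above all 3 control arrays at both probes. Probe 141689 gave 2.45, 2.50 and 2.71 in treated arrays and 2.06, 1.97 and 2.22 in control arrays, a log2(Fold Change) of 0.47 (95% interval 0.12 to 0.82) that missed the threshold (limma adjusted p = 0.0692). Probe 224395 gave 3.32, 3.20 and 3.12 in treated arrays and 3.06, 3.00 and 2.87 in control arrays (0.24, adjusted p = 0.253). Centring on ribosomal proteins turned the sign of both ABI values, to -0.10 and -0.34, while quantile normalization made probe 141689 a higher call (0.72, adjusted p = 0.0185).

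Cyclin D2 (CCND2, Entrez Gene ID 894), the D cyclin best known from gonadal and lymphoid cells, gave 4 different answers at its 4 AFFX probe sets. Probe set 231259_s_at read 10.03, 10.02 and 9.94 in treated arrays and 8.96, 8.89 and 8.78 in control arrays, 2.17-fold higher (log2(Fold Change) 1.12, standard error 0.0841, limma adjusted p = 1.96e-06). The gap between the pools was many times the spread within them. Probe set 200951_s_at read 11.09, 11.03 and 11.08 in treated arrays and 10.83, 10.65 and 10.65 in control arrays, a change of 1.28-fold that passed the p-value but not the fold limit (adjusted p = 0.0079). Probe set 200952_s_at read 9.30, 9.32 and 9.33 in treated arrays and 9.23, 9.17 and 9.22 in control arrays, apart but by 0.11 only (adjusted p = 0.275). The brightest, 200953_s_at, read 12.78, 12.83 and 12.69 in treated arrays and 12.92, 12.73 and 12.73 in control arrays. These overlapped, and the change was -0.02 (95% interval -0.22 to 0.18, from technical spread alone), under the 1.12 at 231259_s_at. The signal of 200953_s_at was at the 99.6th percentile of AFFX probe sets, and whether a rise would show at that level was not tested. The positions of the probe sets on the CCND2 transcripts were not given in the tables used here. The single ABI probe, 159147, read 9.23, 9.36 and 9.44 in treated arrays and 9.06, 8.97 and 9.01 in control arrays, a log2(Fold Change) of 0.33 (95% interval 0.02 to 0.63, adjusted p = 0.121). Under ribosomal protein centring the ABI value became -0.25 and under quantile normalization -0.22, and 231259_s_at stayed higher under every centring tried.

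Cyclin D3 (CCND3, Entrez Gene ID 896), the most widely expressed D cyclin, lay lower in all 3 treated arrays than in any control array on both platforms, but was called on neither. AFFX probe set 201700_at read 9.50, 9.62 and 9.43 in treated arrays and 10.08, 9.88 and 9.85 in control arrays. The change of -0.42 (standard error 0.0933, limma adjusted p = 0.00521) was 1.34-fold and so under the fold limit. ABI probe 145871 read 2.66, 2.14 and 2.59 in treated arrays and 3.21, 3.08 and 3.02 in control arrays. Here the change of -0.64 was 1.56-fold and the p-value missed the threshold (adjusted p = 0.059). On ABI, ribosomal protein centring (-1.21), the filter on dim probes and the trend setting of limma made CCND3 a lower call, while quantile normalization made the change smaller (-0.38, adjusted p = 0.191). On AFFX, hybridisation control centring made it a lower call (-0.84). The other AFFX probe set, 1562028_at, was dim, at 5.61, 5.48 and 5.58 in treated arrays and 5.43, 5.49 and 5.61 in control arrays.

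Cyclin E1 (CCNE1, Entrez Gene ID 898), an activator of CDK2 that is often amplified in ovarian carcinoma, fell on both platforms. AFFX probe set 213523_at read 9.04, 9.13 and 8.99 in treated arrays and 10.12, 9.90 and 10.05 in control arrays, 1.96-fold lower (log2(Fold Change) -0.97, standard error 0.0885, limma adjusted p = 9.55e-06). On ABI probe 200770 read 2.43, 1.97 and 2.08 in treated arrays and 3.79, 3.70 and 3.90 in control arrays, 3.1-fold lower (-1.63, standard error 0.165, adjusted p = 0.00285). This was the largest change of any cyclin probe on ABI. The pools stood far apart on both platforms. The AFFX probe set 242105_at was dim and did not pass the test, with 4.92, 4.83 and 5.12 in treated arrays against 4.80, 4.76 and 4.57 in control arrays (0.25, adjusted p = 0.0782).

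Cyclin E2 (CCNE2, Entrez Gene ID 9134), the paralog of E1 with the same kinase partner, fell at all 3 of its probes. AFFX probe set 205034_at read 6.42, 6.67 and 6.08 in treated arrays and 7.91, 7.89 and 7.52 in control arrays. It was 2.61-fold lower (-1.39, standard error 0.15, limma adjusted p = 3.78e-05), the largest change of any cyclin probe set on AFFX. Probe set 211814_s_at read 5.70, 5.82 and 5.76 in treated arrays and 6.87, 6.86 and 6.69 in control arrays, 2.06-fold lower (-1.04, adjusted p = 4.24e-06), with the treated but not the control arrays below the dim guide. ABI probe 188877 read 1.40, 1.38 and 1.42 in treated arrays and 2.90, 2.81 and 2.70 in control arrays, 2.64-fold lower (-1.40, standard error 0.119, adjusted p = 0.00168). No treated array reached the lowest control array at any of these probes.

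Cyclin A1 (CCNA1, Entrez Gene ID 8900), whose expression is mostly confined to the germ line and some leukaemias, was dim on both platforms. On AFFX probe set 205899_at read 4.07, 4.04 and 4.11 in treated arrays and 4.07, 4.05 and 3.89 in control arrays, below the median of the leukocyte marker probe sets in these cells. On ABI probe 159281 read -1.09, -0.34 and -1.09 in treated arrays and -0.89, -1.40 and -1.40 in control arrays. The pools overlapped on both platforms, and neither change passed the test (0.07 with adjusted p = 0.52 on AFFX, and 0.39 with adjusted p = 0.383 on ABI, limma). The ABI value was 0.14 without treated replicate 2.

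Cyclin A2 (CCNA2, Entrez Gene ID 890), the somatic A cyclin required for DNA replication and entry into mitosis, fell on both platforms. AFFX probe set 203418_at read 8.97, 9.06 and 8.98 in treated arrays and 9.83, 9.74 and 9.81 in control arrays, 1.73-fold lower (log2(Fold Change) -0.79, standard error 0.0801, limma adjusted p = 2.18e-05). The brighter probe set 213226_at read 9.40, 9.52 and 9.29 in treated arrays and 9.98, 9.93 and 9.71 in control arrays. Its change of -0.47 passed the p-value (adjusted p = 0.00414) but at 1.38-fold not the fold limit, which is why the brightest-probe count above holds 4 cyclins. ABI probe 110863 read 5.09, 5.22 and 5.11 in treated arrays and 6.20, 6.16 and 6.07 in control arrays, 2-fold lower (standard error 0.118 on the log2 scale, adjusted p = 0.0047). At all 3 probes every treated array lay below every control array.

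Cyclin B1 (CCNB1, Entrez Gene ID 891), the B cyclin essential for mitosis, fell at all 3 probes. AFFX probe set 214710_s_at read 9.63, 9.84 and 9.51 in treated arrays and 10.57, 10.34 and 10.38 in control arrays, 1.71-fold lower (-0.77, standard error 0.105, limma adjusted p = 0.00023). Probe set 228729_at read 7.87, 8.06 and 7.52 in treated arrays and 8.88, 8.59 and 8.55 in control arrays, 1.81-fold lower (-0.85, adjusted p = 0.000791). ABI probe 216120 read 6.26, 6.11 and 6.20 in treated arrays and 7.57, 7.28 and 7.28 in control arrays, 2.28-fold lower (-1.19, standard error 0.14, adjusted p = 0.00468). The control arrays were higher throughout, and the spread within a pool was at most 0.275 (SD).

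Cyclin B2 (CCNB2, Entrez Gene ID 9133), a second B cyclin found mainly at the Golgi apparatus, was not lower by the call rule at any probe. AFFX probe set 202705_at, the brightest of the 3, read 10.20, 10.26 and 10.16 in treated arrays and 10.30, 10.24 and 10.32 in control arrays. The values overlapped, and the change of -0.08 (standard error 0.0793, limma adjusted p = 0.45) had a 95% interval of -0.25 to 0.10. Probe set 232764_at read 6.62, 6.64 and 6.54 in treated arrays and 5.86, 5.94 and 6.22 in control arrays. It was called higher at 1.51-fold (0.59, standard error 0.103, adjusted p = 0.00119), just past the fold limit, and the call was lost under median, ribosomal protein and hybridisation control centring. It was also lost when AFFX treated replicate 1 or 2 or control replicate 1 or 2 was left out, with changes between 0.52 and 0.70 over the 6 arrays left out in turn. Probe set 232768_at was dim, at 4.04, 4.05 and 3.92 in treated arrays and 4.03, 3.53 and 3.99 in control arrays. ABI probe 169571 read 5.49, 5.40 and 5.36 in treated arrays and 5.91, 5.83 and 5.67 in control arrays, apart but with an adjusted p of 0.0882 (-0.39, 95% interval -0.71 to -0.07). Ribosomal protein centring made it a lower call (-0.96).

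Cyclin F (CCNF, Entrez Gene ID 899), which marks substrates such as CP110 and RRM2 for destruction in G2, fell at all 4 probes. AFFX probe set 204826_at read 7.59, 7.71 and 7.52 in treated arrays and 8.69, 8.64 and 8.83 in control arrays, 2.16-fold lower (log2(Fold Change) -1.11, standard error 0.0902, limma adjusted p = 3.73e-06). Probe set 204827_s_at read 4.79, 4.64 and 4.44 in treated arrays and 5.95, 5.76 and 6.10 in control arrays, 2.48-fold lower (-1.31, adjusted p = 6.7e-06), although it was dim by the leukocyte guide in both pools. ABI probe 143895 read 1.496, 1.54 and 1.38 in treated arrays and 3.02, 2.80 and 2.92 in control arrays, 2.72-fold lower (-1.44, standard error 0.128, adjusted p = 0.00186). ABI probe 178183 was more variable, at 0.19, 0.88 and 0.01 in treated arrays and 1.86, 1.61 and 1.66 in control arrays. It was 2.54-fold lower (-1.35, standard error 0.255, adjusted p = 0.0204), and this call was lost in 5 of the 6 fits that left out 1 ABI array.

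**Figure D4:**
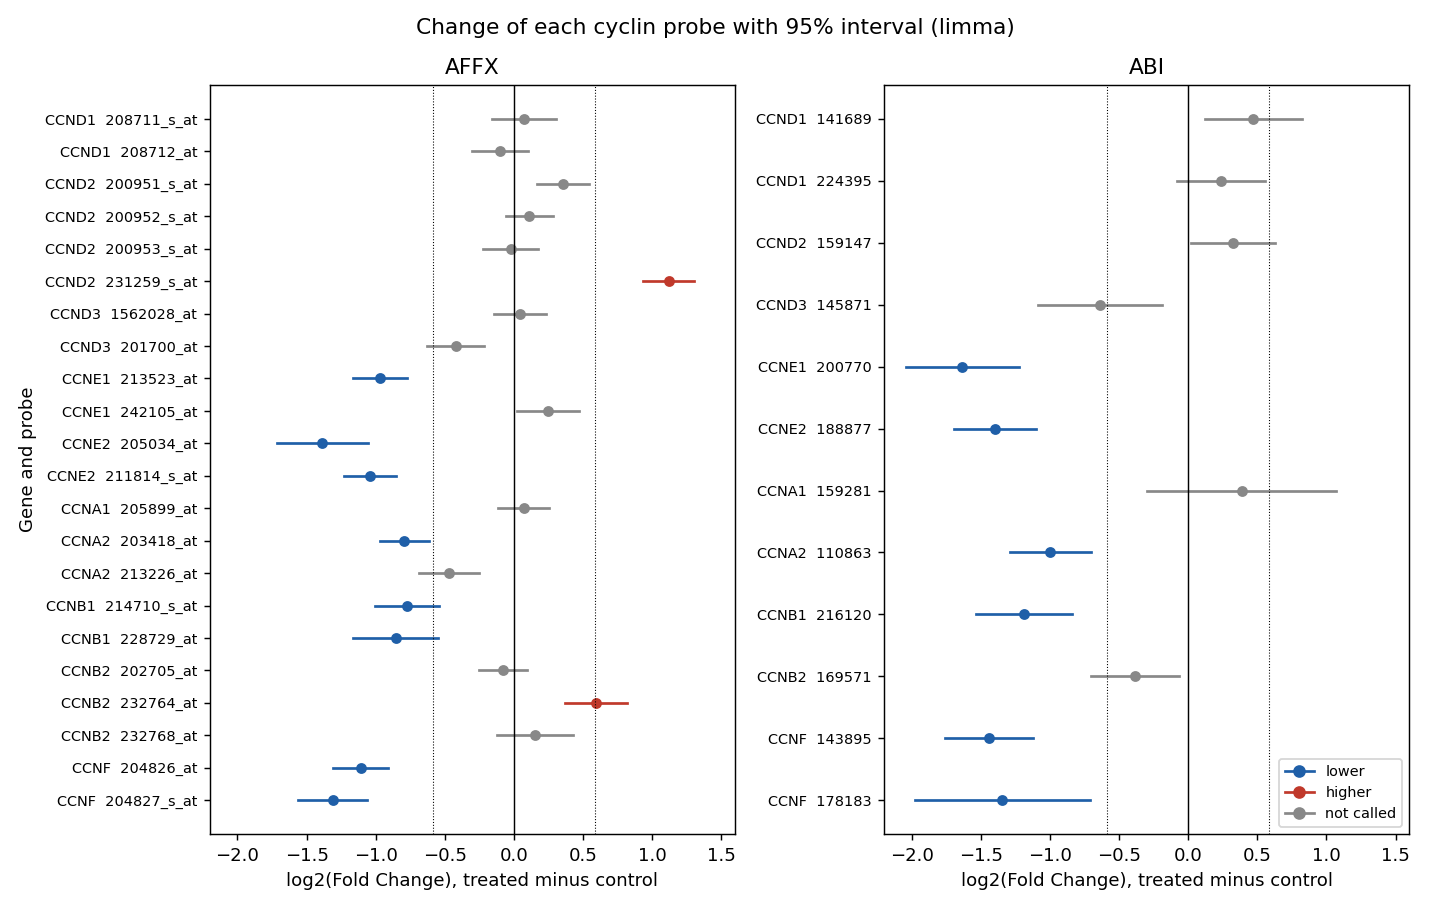
log2(Fold Change), treated minus control, of each cyclin probe on AFFX (left) and ABI (right), with 95% intervals from limma and dotted lines at 1.5-fold in either direction. Probes of CCNE2, CCNB1 and CCNF are lower at every probe on both platforms, and CCND2 ranges from -0.02 to 1.12 over its AFFX probe sets.

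The cyclins of a class were compared by the log2 ratio of 2 genes within each array, which cancels a shift shared by all probes of an array but not a correction that depends on signal, such as quantile normalization. The pairs of the D, E and B classes were chosen after the values had been seen, and the brightest probe of each gene was used. The 5 changes in ratio were tested by exact two-sided permutation of the array labels within each platform (400 arrangements, smallest possible p 0.005), with adjustment over the 5 pairs. The ratio of CCNB1 to CCNB2 lay between -0.65 and -0.42 in treated and between 0.07 and 0.27 in control arrays on AFFX, and between 0.72 and 0.84 in treated and between 1.45 and 1.66 in control arrays on ABI. It thus changed by -0.69 on AFFX and -0.80 on ABI (exact p = 0.005, adjusted 0.00833), so that CCNB1 was lower relative to CCNB2 in all 6 treated arrays. With quantile normalization the ABI change was -1.003.

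Of the D cyclin ratios, those with CCND2 depended most on the processing. The ratio of CCND1 to CCND3 lay between -0.42 and -0.35 in treated and between -0.83 and -0.56 in control arrays on AFFX, and between 0.53 and 1.06 in treated and between -0.15 and -0.08 in control arrays on ABI. The changes were 0.32 on AFFX and 0.88 on ABI (exact permutation p = 0.005, adjusted 0.00833), and the ABI change was again 0.88 with quantile normalization. That of CCND2 to CCND3 changed by 0.40 on AFFX and 0.96 on ABI (exact permutation p = 0.005, adjusted 0.00833). With quantile normalization its ABI change was only 0.16 and the test no longer passed (exact permutation p = 0.03, adjusted 0.05). The ratio of CCND1 to CCND2 has no settled direction. It changed by -0.08 on AFFX and -0.09 on ABI (exact permutation p = 0.32, adjusted 0.4), by 0.72 on ABI with quantile normalization, and by -1.22 on AFFX when the probe of lowest p, 231259_s_at, stood for CCND2. For CCNE1 and CCNE2 the ratio changed by 0.42 on AFFX and -0.23 on ABI, with opposite signs and an exact permutation p of 0.59.

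The platforms were compared by an interaction in limma over the 16186 shared genes, of which 15.1% had an adjusted p under 0.05. This fit gave each gene a single error variance for both platforms. Over all probes the median standard error of a change was 0.0957 on AFFX and 0.269 on ABI. How the p-values would change with a separate error variance per platform was not tested. For the cyclins lower on both platforms the log2(Fold Change) at the probes chosen was smaller in size on AFFX than on ABI in each case as deposited. This order turned under hybridisation control centring of AFFX for CCNE2 (-1.46), CCNA2 (-1.21) and CCNF (-1.53), and CCNB1 came level (-1.19). The gap also depended on the probe. CCNE2 205034_at changed by -1.39 on AFFX, against -1.40 on ABI. CCNF 204827_s_at changed by -1.31 on AFFX, against -1.35 at ABI probe 178183. The difference, AFFX minus ABI, was 0.66 for CCNE1 (standard error 0.174, adjusted p = 0.0292), 0.36 for CCNE2 (adjusted p = 0.0743), 0.21 for CCNA2 (adjusted p = 0.251), 0.42 for CCNB1 (adjusted p = 0.135) and 0.33 for CCNF (adjusted p = 0.136). Only that of CCNE1 passed the test. CCND1, CCND2 and CCNB2 also differed between platforms at the probes chosen, by -0.57, 0.79 and 0.98. For CCND2 and CCNB2 the AFFX value is that of the probe set of lowest p (1.12 and 0.59). The other AFFX probe sets of CCND2 changed by -0.02 to 0.36 and those of CCNB2 by -0.08 and 0.15, so a difference between platforms cannot be told apart from one between probes. The difference was 0.22 for CCND3 (adjusted p = 0.517) and -0.32 for CCNA1 (adjusted p = 0.53). Of the 10 cyclins 4 thus differed, against 8 under ribosomal protein centring and 1 under hybridisation control centring. A centring moves the platform difference of every gene alike (ribosomal proteins by -0.16 on AFFX and -0.58 on ABI). The share of all genes under each centring is not given here, so the counts of 8 and 1 are not particular to the cyclins. The platforms share the RNA pools but not the probes.

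**Figure D5:**
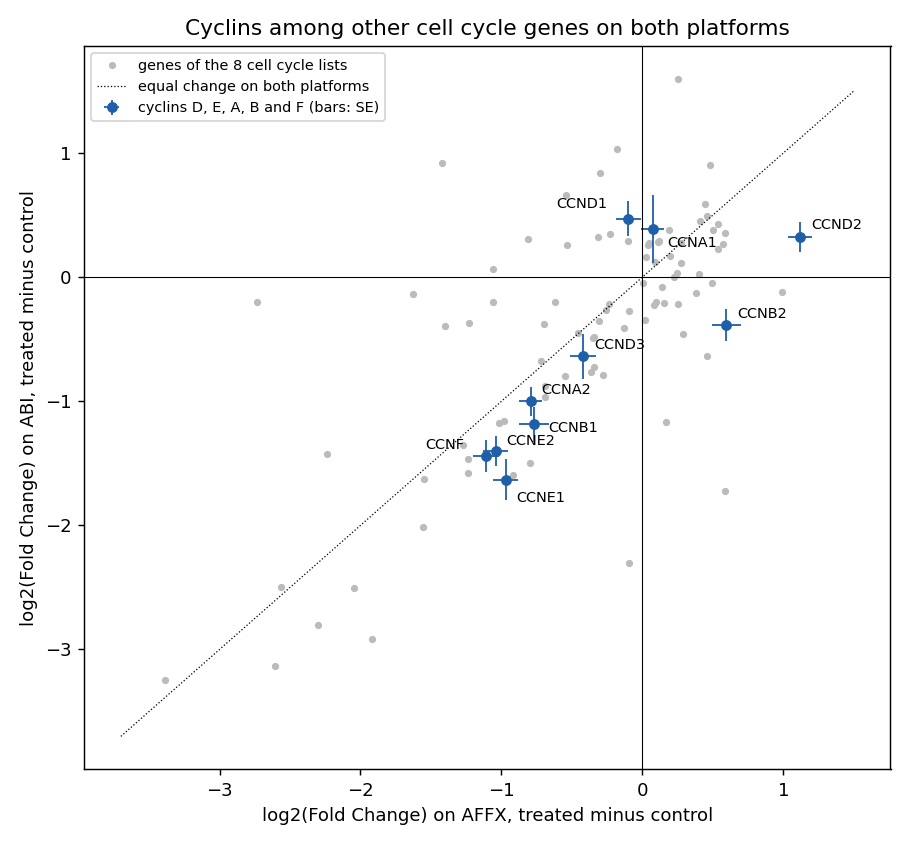
log2(Fold Change), treated minus control, on AFFX (horizontal) and ABI (vertical) for the 10 cyclins, with standard errors as bars, over the genes of 8 cell cycle lists as grey dots and a dotted line of equal change. CCNE1, CCNE2, CCNA2, CCNB1 and CCNF lie together at lower left. All cyclins but CCND1 and CCNA1 lie right of the line, with CCND2 and CCNB2 farthest from it.

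The genes that act on or with these cyclins were counted in 8 lists, with 1 probe per gene chosen as above. Over all genes the median log2(Fold Change) was 0.16 on AFFX and 0.09 on ABI, and the shares of lower calls to set beside the counts are 14.2% on AFFX, 14.8% on ABI and 10.5% on both. No test was made of a list as a whole. Of the 6 partner kinases and CKS subunits, 5 were measured on both platforms, 1 was lower on both and none was higher (list medians 0.23 on AFFX and 0.02 on ABI). This was CKS2, the small subunit that docks CDKs on phosphorylated substrates, at 9.45 in treated and 11.001 in control arrays on AFFX (-1.55) and at 6.45 in treated and 8.07 in control arrays on ABI (-1.63). The kinases themselves are given for their role, outside the naming rule. CDK1 changed by -0.35 on AFFX and -0.49 on ABI, CDK2 by 0.40 and 0.02, CDK4 by 0.27 and 0.27, and CDK6 by 0.19 and 0.38, and none was called. The CDK2 signal on AFFX was below the dim guide (4.31 in treated and 3.91 in control arrays). So was the CDK6 signal on ABI (-1.75 in treated and -2.13 in control arrays). Of the CDK inhibitors 6 were measured on each platform, with 2 lower on AFFX, 3 lower on ABI and 2 on both (list medians 0.08 and -0.13). CDKN1B, which encodes p27 and restrains cyclin E-CDK2, averaged 5.98 in treated and 9.37 in control arrays on AFFX (10.5-fold lower, against a treated signal below the dim guide) and 1.02 in treated and 4.27 in control arrays on ABI (9.51-fold lower). CDKN1A, which encodes p21, was lower by 1.74-fold on AFFX and 2.82-fold on ABI.

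Of the 13 genes of the RB pocket proteins, E2F and DP factors, 7 were lower on AFFX (all genes 14.2%), 3 on ABI (14.8%) and 3 on both (10.5%), with none higher (list medians -0.72 on AFFX and -0.20 on ABI). The 3 were E2F6, a repressor of the family, at -2.60 on AFFX and -3.14 on ABI, E2F3, an activator, at -0.98 and -1.16, and E2F5, a pocket protein-bound repressor, at -0.72 and -0.67. The 5 CDC25 phosphatases and WEE1 kinases held 3 lower on AFFX and 2 on ABI, and 1 on both (medians -0.62 and -0.41). This was WEE1, which phosphorylates CDK1 to hold it inactive, lower by 3.78-fold on AFFX and 7.56-fold on ABI, where its treated signal (-0.47) was below the dim guide. Of 19 genes of cyclin degradation, 5 were lower on AFFX, ABI gave 5 lower and 2 higher, and 3 were lower on both (medians -0.34 and -0.00). FBXO5, the EMI1 inhibitor of the anaphase-promoting complex, was lower by 5.9-fold on AFFX and 5.64-fold on ABI. CUL1, the scaffold of the SCF ligases that degrade cyclin E and that cyclin F joins, changed by -1.24 on AFFX and -1.46 on ABI. ANAPC10, a subunit of the anaphase-promoting complex, changed by -0.69 on AFFX and -0.88 on ABI.

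Of 10 regulators of mitotic cyclin transcription, 9 of them on ABI, 3 were lower on each platform (all genes 14.2% and 14.8%) and 2 on both (10.5%; medians -0.28 on AFFX and -0.14 on ABI). These were NFYA, the sequence-reading subunit of the NF-Y factor that binds CCAAT boxes such as those shown above, at -2.04 on AFFX and -2.51 on ABI, and LIN52, a subunit of DREAM and MMB, at -0.69 and -0.97. The treated signals of NFYA were below the dim guide on AFFX (5.86) and on ABI (-1.99), and with its brightest ABI probe NFYA was not called there (-0.74, limma adjusted p = 0.0641). Of 10 inducers of D cyclin transcription, 3 were lower and 1 higher on AFFX and 2 lower on ABI (medians 0.13 and -0.30). Only MYC was lower on both, averaging 7.65 in treated and 9.95 in control arrays on AFFX and 3.41 in treated and 6.21 in control arrays on ABI (4.93-fold and 6.99-fold lower). Of 19 other cyclins, 5 were lower on AFFX, while ABI gave 5 lower and 1 higher (medians 0.08 and -0.20). The 5 lower on both included CCNT2, a subunit of the elongation kinase P-TEFb (-2.24 on AFFX and -1.42 on ABI), CCNG2, a cyclin linked to growth arrest (-1.56 and -2.02), CCNJ (-1.27 and -1.35) and CCNL1, a cyclin linked to splicing (-1.24 and -1.58). The treated signals of CCNT2 on AFFX (4.25) and of CCNG2 on AFFX (5.01) and ABI (-0.65) were below the dim guide. The fifth, CCNT1, named after its values were seen, changed by -1.02 on AFFX and -1.18 on ABI.

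Likeness between genes was measured as the distance between their pairs of log2(Fold Change) on AFFX and ABI, over 86 candidate genes of the lists. This rests on 2 platforms and 1 contrast. Nearest to CCNE1 were SP1 (0.0666), CDKN1A (0.222) and CCNL1 (0.276). SP1, at -0.92 on AFFX and -1.59 on ABI, was below the dim guide in both AFFX pools and in treated cells on ABI, and was not called on ABI (standard error 0.5), so that its place in this order is uncertain. Nearest to CCNE2 were CUL1 (0.207), CCNT1 (0.222) and SP1 (0.229). Nearest to CCNA2 were LIN52 (0.11), ANAPC10 (0.159) and E2F3 (0.249), and nearest to CCNB1 were E2F3 (0.212), LIN52 (0.236) and CCNT1 (0.25). For CCNF the nearest were CUL1 (0.132), CCNJ (0.187) and CCNL1 (0.188).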

How the data were processed

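Total RNA of A2780 cells was measured on AFFX HGU133 Plus arrays and ABI Human Genome Survey arrays, 3 arrays per condition and platform. The authors deposited AFFX signals as log2 values from RMA (version not given in the sources used here) after quantile normalization. The ABI intensity values deposited by the authors are linear, after global median normalization, and were turned to log2 here. No detection flags were used. The treated and control arrays of a platform were compared in an unpaired fit of limma (version 3.58.1, R version 4.3.3) over all probes other than the 62 AFFX control probe sets. Gene names came from the platform annotation, in which 41091 AFFX probe sets and 21089 ABI probes have 1 gene symbol, and 1801 and 563 have several. Array medians lay between 5.37 and 5.47 (log2) on AFFX and between 1.06 and 1.19 (linear) on ABI. The median standard error of a change was 0.0957 on AFFX and 0.269 on ABI, and precision is limited by how many arrays there are.

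The cyclins and the lists were chosen with earlier results of these data known. The text names every probe of the cyclins, of each list at most 4 genes with the same call on AFFX and ABI, and the 3 genes nearest to each cyclin called on both. Alternatives were a block for the replicate number, other scalings, a filter on dim probes, other thresholds, the methods' t-test, limma with trend, another choice of probe and each array left out. Those for the platform difference and the paralog ratios, and the choice of probe for the lists, were added after seeing the data. Protein sequences were not analysed here. The scripts were tested on simulated data.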

Additional observations from a re-analysis of the deposited data

Results flagged for a closer look

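For 4 of the 10 cyclins the change between treated and control arrays differed between the platforms in the limma interaction (adjusted p over 16186 genes). That fit used a single error variance per gene for both platforms. CCND2 had a difference, AFFX minus ABI, of 0.79 on the log2 scale (standard error 0.12, adjusted p = 0.00193), with 1.12 on AFFX at 231259_s_at and 0.33 on ABI. CCNB2 had a difference of 0.98 (standard error 0.154, adjusted p = 0.00238), with 0.59 on AFFX at 232764_at and -0.39 on ABI. CCND1 had a difference of -0.57 (standard error 0.151, adjusted p = 0.0298), with -0.10 on AFFX and 0.47 on ABI. CCNE1 had a difference of 0.66 (standard error 0.174, adjusted p = 0.0292), lower on both platforms, at -0.97 on AFFX and -1.63 on ABI. The other AFFX probe sets of CCND2 changed by -0.02 to 0.36 and those of CCNB2 by -0.08 and 0.15, so these 2 differences depend on the probe set chosen. With the brightest probe of each gene, 2 cyclins differed in place of 4. The share of all genes under that choice is not given here.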

How the results depend on the processing

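Of the cyclin probes, all 34 kept their direction and call under the methods' t-test. Same-numbered treated and control arrays did not deviate together in every pair (correlations 0.0746, 0.00403 and 0.327 on AFFX, and 0.0342, -0.00667 and 0.0717 on ABI). On AFFX some arrays of different number were related as strongly (0.324 for treated 2 and control 1, -0.339 for treated 3 and control 1). The number was therefore not used as a pairing in the main fit, and the source of this shared deviation was not tested. With the replicate block, 8 cyclin probe sets were lower and 2 higher on AFFX, 5 were lower and 0 higher on ABI, and 3 cyclins differed between platforms. The lost ABI call was CCNF 178183 (adjusted p = 0.0744). At a limit of 2-fold, 4 probe sets were lower and 1 was higher on AFFX, and 2 cyclins were lower on both platforms. Only 1 AFFX probe set was higher under median, ribosomal protein or hybridisation control centring, since CCNB2 232764_at lost its call (0.54, 0.43 and 0.18). Under quantile normalization 1 ABI probe was higher, CCND1 141689 (0.72, adjusted p = 0.0185). Ribosomal protein centring gave 8 cyclins that differed between platforms and hybridisation control centring 1, and the brightest probe 2. The shares of all genes under these settings are not given here. With the brightest probe the regulators of mitotic cyclin transcription held 1 gene lower on both platforms, LIN52, since NFYA was not called on ABI (-0.74, adjusted p = 0.0641). Of the changes in ratio, averaged over the platforms, CCND1 to CCND2 was 0.32 under ABI quantile normalization, CCND2 to CCND3 was 0.28 there (exact permutation adjusted p = 0.05), and CCNE1 to CCNE2 was -0.081 with the probe of lowest p.

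Probes that were not called changed sign as follows. Ribosomal protein centring gave -0.12 for CCND3 1562028_at, -0.052 for CCND2 200952_s_at, -0.091 for CCNA1 205899_at, -0.0896 for CCND1 208711_s_at and -0.0089 for CCNB2 232768_at on AFFX. On ABI it gave -0.10 for CCND1 141689, -0.34 for CCND1 224395, -0.25 for CCND2 159147 and -0.19 for CCNA1 159281. Hybridisation control centring gave -0.37 for CCND3 1562028_at, -0.061 for CCND2 200951_s_at, -0.31 for CCND2 200952_s_at, -0.35 for CCNA1 205899_at, -0.34 for CCND1 208711_s_at, -0.26 for CCNB2 232768_at and -0.17 for CCNE1 242105_at. Median centring gave -0.011 for CCND3 1562028_at, and ABI quantile normalization -0.22 for CCND2 159147. With 1 AFFX array left out, CCND2 200953_s_at ranged from -0.055 to 0.043, above 0 without treated replicate 3 or control replicate 1, and CCNB2 232768_at from -0.0047 to 0.243, below 0 without control replicate 2. CCND3 became a call on AFFX under hybridisation control centring (-0.84), and on ABI under ribosomal protein centring (-1.21), the filter on dim probes (adjusted p = 0.0132) and limma with trend and robust settings (adjusted p = 0.00148). CCNA2 213226_at became one under ribosomal protein (-0.63) and hybridisation control centring (-0.89), and CCNB2 169571 under ribosomal protein centring (-0.96). The cause was not tested.

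With 1 array left out in turn, 8 to 8 probe sets were lower and 1 to 2 higher on AFFX, 5 to 6 probes were lower and 0 to 0 higher on ABI, 5 to 5 cyclins were lower and 0 to 0 higher on both platforms, and 2 to 4 differed between platforms (2 without AFFX treated replicate 1 and without AFFX control replicate 2). CCNF 178183 ranged from -1.61 to -1.17, with adjusted p between 0.0572 and 0.0656 where its call was lost. The filter on dim probes, set at the platform median, gave no value for 5 cyclin probes, both of CCNA1, CCNE1 242105_at, CCNB2 232768_at and the called CCNF 204827_s_at, and left 7 AFFX probe sets lower. On ABI 7 probes were then lower. Signals near that level limit what can be said of CCNA1.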
